A study of Danio rerio with 6 samples.

Results

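Collagen genes were taken as every row of the expression table whose symbol starts with col, then digits, then the letter a and a digit, such as col6a1. The rule found 56 of 23745 genes. Of these, 54 encode collagen chains, and 2 carry an older name of ceramide transfer protein genes (col4a3bpa and col4a3bpb, cert1a and cert1b in RefSeq) and were kept apart. The libraries hold poly(A) RNA of 2000 cells each, sorted by fluorescence as hepatocytes from zebrafish larvae at 6 days post fertilisation. The 3 CTL libraries came from Tg(fabp10a:eGFP) larvae, in which the promoter of the liver gene fabp10a drives a green reporter. The 3 lcat OE libraries came from Tg(fabp10a:lcat-T2A-mCherry; fabp10a:eGFP) larvae, in which the same promoter also drives lcat, the gene of lecithin-cholesterol acyltransferase, joined to a red reporter. Both groups carry the green reporter, and neither carries the red reporter without lcat, so lcat, the red reporter and other differences between the lines cannot be told apart. The labels do not say whether replicates came from separate clutches or sorts, so each p-value speaks of the variation among these 6 libraries, part of which may be technical.

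Collagens are extracellular matrix proteins whose chains wind into a triple helix. Fibrillar collagens build fibres, network collagens such as type IV line basement membranes, and other classes join fibres to each other, to basement membranes or to cells. In liver, stellate cells and portal fibroblasts are known as the main makers of fibrillar collagen and are the source of scar matrix in fibrosis, while hepatocytes themselves are known to make little. The study compared the groups to find transcripts that change with early fat accumulation in the liver; the collagen genes ask whether matrix transcripts differ at the same time.

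Libraries of 1 group differed among themselves, and markers of other cell types were present. Hepatocyte markers held 346800 to 362400 TPM (a level scaled to transcript length and library depth) in CTL and 389400 to 397300 TPM in lcat OE, and were high in all 6 libraries, as labelled. Of the other lists, summed TPM was lower in every lcat OE library than in every CTL library for stellate cell and fibroblast markers (44.2 to 54.2 in CTL, 26 to 35.5 in lcat OE; 0 of 16 tested genes higher, 4 lower), skeletal muscle (47.9 to 301, 17.3 to 20.5; 0 of 17 higher, 7 lower), bone (11.9 to 17.8, 9.52 to 10.4; 0 of 3 higher, 1 lower), pigment cells (79.1 to 200.2, 24.6 to 28.2; 0 of 9 higher, 7 lower), nerve and photoreceptor cells (28.8 to 45.4, 3.96 to 5.21; 0 of 13 higher, 10 lower), bile duct (1252 to 1385, 615 to 802; 1 of 9 higher, 4 lower) and exocrine pancreas (871 to 2189, 52.9 to 279.9; 0 of 15 higher, 6 lower). These marker sums were compared on TPM only. The most abundant bone markers, enpp1 and bglap (means of 6.59 and 5.58 TPM in CTL), were not called (adjusted p 0.58 and 0.52 by edgeR). In counts scaled to library size both genes overlapped between the groups, so the separation of the bone sums may depend on the scale. The bile duct list is not specific: its falls were krt8, krt18, f3b and abcb11b, and abcb11b encodes the bile salt pump of hepatocytes. Mean TPM fell from 504 to 186 for krt8 and from 411 to 152 for krt18. In the same list her9 rose, and anxa4, sox9b, alcama and onecut1 were not called. Epidermal markers (184 to 461 and 5160 to 8961; 16 of 20 higher, 1 lower) and macrophage markers (12.8 to 19.3 and 25.4 to 29.9; 5 of 8 higher, 1 lower) were higher in every lcat OE library. Cartilage (9.36 to 30.9, 10.1 to 11.6; 0 of 9 higher, 2 lower) and notochord markers (0.34 to 0.63, 0.33 to 0.66; 1 gene tested, none called) overlapped. The endothelial sums overlapped too (3.54 to 7.05, 3.45 to 9.26; 1 of 9 higher, 4 lower, median log2 fold change -1.85), but through sox7, the gene that rose: without it, a choice made after its values were seen, the other 14 summed to 2.65, 5.55 and 3.59 TPM in CTL and 1.02, 0.68 and 0.71 TPM in lcat OE. Beside these counts of called markers, 16.3% of all genes tested were called lower and 16.3% higher (edgeR, adjusted p under 0.05). Several lists hold few tested genes, so a small count there can lie near that share. No listed marker was at 0 in all 6 libraries. Some called markers were tested because they were high in 1 group. For example, pdgfra, tyr, snap25b, gnat1 and opn1mw1 passed the filter on low counts only through CTL, and marco only through lcat OE. In bulk samples of this kind, fewer cells of a type and less RNA per cell cannot be told apart. The part of these cells in the collagen results was not tested.

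Collagen transcripts were rare in all 6 libraries, and the family did not move as 1 block. Collagen genes held 0.0107% to 0.0265% of counts per library, out of totals of 23336591 to 24890856 counts. Of the 54 genes, 31 had enough counts to be tested, and 5 of these fell in lcat OE: col6a1, col6a3, col4a2, col5a1 and col13a1. None of the 31 was called higher by edgeR, and none had an unadjusted p under 0.05 in that direction, while 8 had one in the lower direction. The share of all genes with such an unadjusted p is not given here, so these counts have no background beside them. The share that fell, 16.1% of those tested, was near that of all genes: 16.3% of 14096 genes were lower and 16.3% were higher (adjusted p under 0.05, edgeR's quasi-likelihood test with Benjamini-Hochberg adjustment over all genes tested). With library totals in place of TMM scaling, 1672 of all genes were higher and 2639 lower, and 6 of 31 collagen genes were lower, col4a1 being added, beside 18.7% of all genes. The log2 fold change was below 0 for 26 of the 31, beside 51.1% of all genes tested, with a median of -0.48 beside -0.02. The 5 calls are unequal: col6a1 changed 9.27-fold and was called under all 15 alternative settings, whereas the other 4 changed 1.46-fold to 2.85-fold and were lost without CTL 2 and without lcat OE 1.

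In counts scaled to library size (CPM), all 3 CTL libraries lay above all 3 lcat OE libraries for 9 of the 31 tested genes, or 29%. The same held for 24.1% of all genes tested. The opposite order was found for 0 of the 31 and for 23.6% of all genes. Of the 31 genes, col6a3, col13a1 and col16a1 passed the filter on low counts only through CTL, and col5a3b and col11a1b only through lcat OE. The calls of col6a3 and col13a1 thus concern genes that were tested because they were high in CTL.

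**Figure D1:**
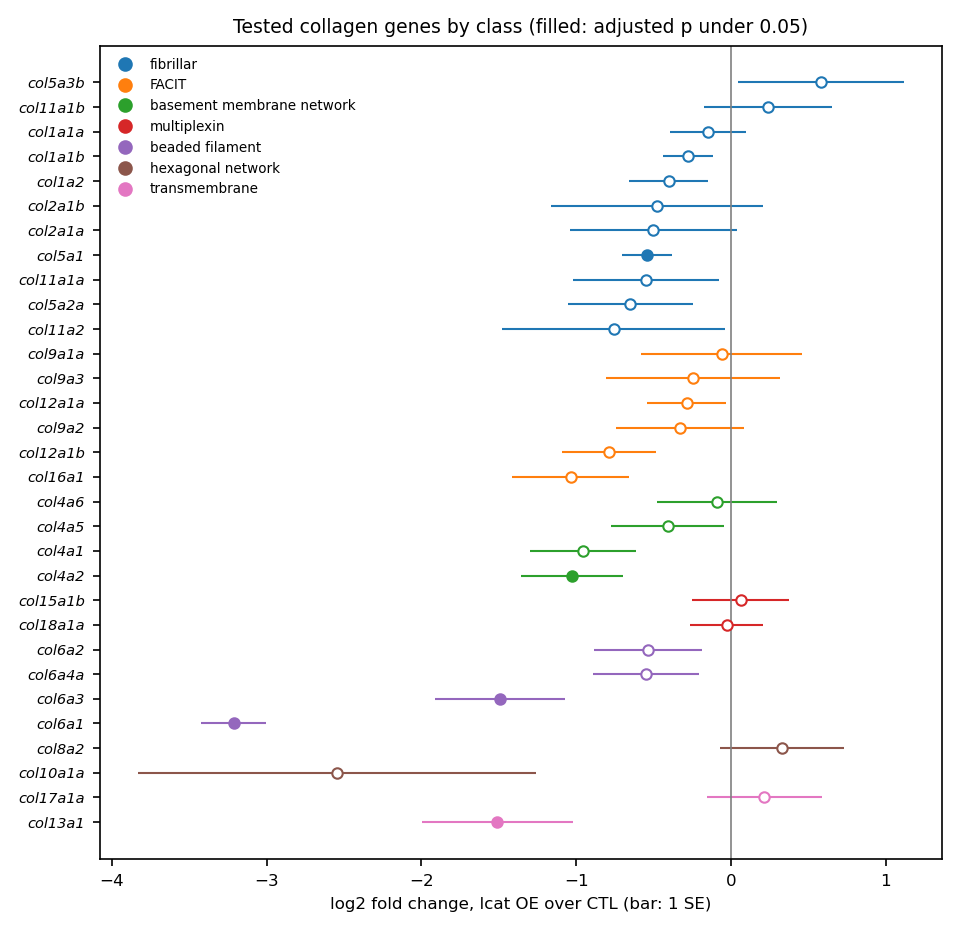
Each point is 1 of the 31 tested collagen genes, placed by its log2 fold change in lcat OE over CTL with a bar of 1 standard error, coloured by class, and filled where the adjusted p was under 0.05. The 5 filled points are all below 0, and col6a1 lies at -3.21, beyond the bars of every other gene but col10a1a.

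The most abundant collagen genes in CTL were those of cartilage and of connective tissue fibres. Mean levels of 1 TPM or more were reached by 10 collagen genes in CTL and by 7 in lcat OE. In CTL the order of mean TPM was col2a1a, col10a1a, col1a2, col6a1, col9a2, col9a3, col1a1a, col9a1a, col1a1b and col11a1a. The CTL values of neighbours in this order overlapped, so the order within CTL is not set beyond the spread between libraries. In lcat OE, col2a1a remained first by its mean, while col6a1 went from rank 4 to rank 13 and col10a1a from rank 2 to rank 8.

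**Figure D2:**
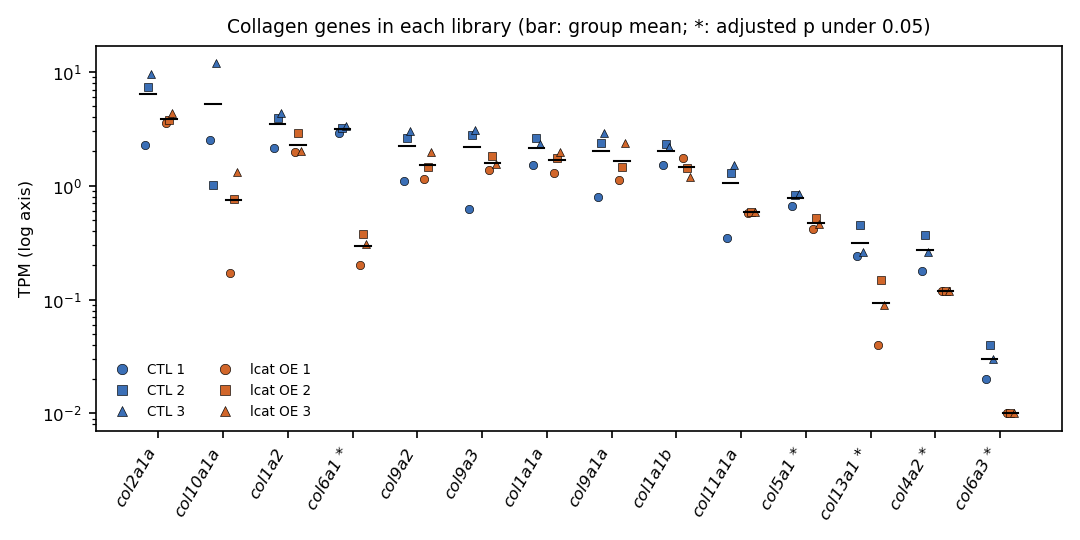
TPM (log axis) of the 10 collagen genes at 1 TPM or more and of the other 4 genes that were called, with 1 point per library, a bar at each group mean, and an asterisk where the adjusted p was under 0.05. For col6a1 the CTL points lie within 2.92 to 3.35 TPM and the lcat OE points within 0.20 to 0.38 TPM, whereas the CTL points of col2a1a and col10a1a spread widely.

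Among the fibrillar collagens, type I is the main fibre of skin, bone and tendon, and in zebrafish it is built from chains encoded by col1a1a, col1a1b and col1a2. The gene col1a2 had 2.16, 3.94 and 4.35 TPM in CTL 1 to 3 and 1.99, 2.88 and 2 TPM in lcat OE 1 to 3. For col1a1a the values were 1.51, 2.63 and 2.31 TPM in CTL and 1.29, 1.76 and 1.97 TPM in lcat OE. The groups overlapped for both genes, and CTL 1 was the lowest CTL library. The third gene, col1a1b, had 1.51, 2.35 and 2.19 TPM in CTL and 1.75, 1.42 and 1.2 TPM in lcat OE, again with overlap. None of the type I genes passed (log2 fold change -0.15, SE 0.25, for col1a1a; -0.28, SE 0.16, for col1a1b; -0.40, SE 0.25, for col1a2; adjusted p 0.690, 0.219 and 0.265 by edgeR). Within libraries, col1a1a stood at 0.53 to 0.70 of the col1a2 level (TPM ratio) in CTL and at 0.61 to 0.98 in lcat OE. For col1a1b the ratio to col1a2 was 0.50 to 0.70 in CTL and 0.49 to 0.88 in lcat OE. Both ratios overlapped between the groups.

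Type V collagen is a minor partner of type I fibres that limits their diameter, and its chain gene col5a1 was the fibrillar gene that fell. Its levels were 0.67, 0.83 and 0.85 TPM in CTL and 0.42, 0.52 and 0.46 TPM in lcat OE, and the groups did not overlap. The counts behind these levels were 174, 208 and 220 in CTL and 115, 152 and 133 in lcat OE. The log2 fold change was -0.54 (SE 0.16, adjusted p = 0.0267 by edgeR), and it passed under 9 of 15 alternatives, with adjusted p from 0.0169 to 0.0969. Leaving out CTL 2, CTL 3 or lcat OE 1 gave adjusted p-values of 0.0738, 0.0913 and 0.0969. Its partner chain gene col5a2a, with 0.30, 0.54 and 0.64 TPM in CTL and 0.13, 0.39 and 0.29 TPM in lcat OE, overlapped between the groups (-0.65, SE 0.41, adjusted p = 0.256 by edgeR). The gene col5a3b, at 0.03 to 0.16 TPM in all libraries, had a value above 0 (0.58, SE 0.54, adjusted p = 0.441).

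Types II, IX and XI form the fibres of cartilage, type II being the core, type XI its nucleator and type IX a coat on its surface. The type II gene col2a1a had 2.28, 7.33 and 9.62 TPM in CTL and 3.54, 3.79 and 4.36 TPM in lcat OE. CTL 2 and CTL 3 lay above every lcat OE library and CTL 1 lay below every one. Its log2 fold change was -0.50 (SE 0.54, adjusted p = 0.539 by edgeR). The type IX genes col9a1a, col9a2 and col9a3 had the same order of CTL libraries, with col9a2 at 1.1, 2.62 and 3.03 TPM in CTL and 1.14, 1.46 and 1.99 TPM in lcat OE. For col9a3 the levels were 0.62, 2.82 and 3.11 TPM in CTL and 1.38, 1.84 and 1.55 TPM in lcat OE, and for col9a1a they were 0.80, 2.38 and 2.89 TPM in CTL and 1.13, 1.46 and 2.37 TPM in lcat OE. None passed (log2 fold change -0.33, SE 0.41, for col9a2; -0.25, SE 0.56, for col9a3; -0.06, SE 0.52, for col9a1a). The type XI gene col11a1a had 0.35, 1.29 and 1.53 TPM in CTL and 0.58, 0.59 and 0.59 TPM in lcat OE (-0.55, SE 0.47, adjusted p = 0.422 by edgeR).

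CTL 1 stood apart for these genes, and the calls turned on it. Summed over the 9 genes of types II, IX and XI, the level was 5.54, 18.5 and 22.5 TPM in CTL and 8.45, 10.2 and 12.01 TPM in lcat OE. The 12 cartilage markers, none of them a collagen, summed to 9.36, 25.2 and 30.9 TPM in CTL and to 10.5, 10.1 and 11.6 TPM in lcat OE. The marker matn1, the gene of a cartilage matrilin, had 0.39, 6.78 and 11.3 TPM in CTL and 3.17, 2.63 and 3.99 TPM in lcat OE. Of 9 tested cartilage markers, 2 were called lower, sox9a and si:dkeyp-12a9.5, and 0 higher. Levels of sox9a were 1.67, 3.29 and 3.6 TPM in CTL and 1.1, 0.8 and 0.97 TPM in lcat OE. Those of si:dkeyp-12a9.5 were 3.2, 5.7 and 7.18 TPM in CTL and 1.97, 2.33 and 1.74 TPM in lcat OE. For both genes every CTL library, CTL 1 included, lay above every lcat OE library (adjusted p = 0.00424 and 0.0062 by edgeR). Both passed under all 15 alternatives. CTL 1 was low and CTL 2 and 3 were high in the sums of the collagen genes and of the markers. The part of cartilage RNA in the collagen levels was not tested. Without CTL 1, 11 of 34 tested collagen genes were called lower beside 13.6% of all genes, among them the 5 genes called with all libraries and also col1a2, col2a1a, col2a1b, col9a3, col11a1a and col11a2. The gene col2a1b overlaps nckap1l in the RefSeq gene table, so its reads may be shared. Without CTL 2, 1 of 34 was lower, and without CTL 3, 2 of 34 were. Without CTL 1 and lcat OE 3, 11 of 34 were lower beside 14.6% of all genes, 4 of them among the 5. This pair was chosen after the values were seen. In the sum of types II, IX and XI it holds the lowest CTL library and the highest lcat OE library. Leaving both out widens the difference for these genes in advance, so this fit adds no separate evidence of a fall.

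**Figure D3:**
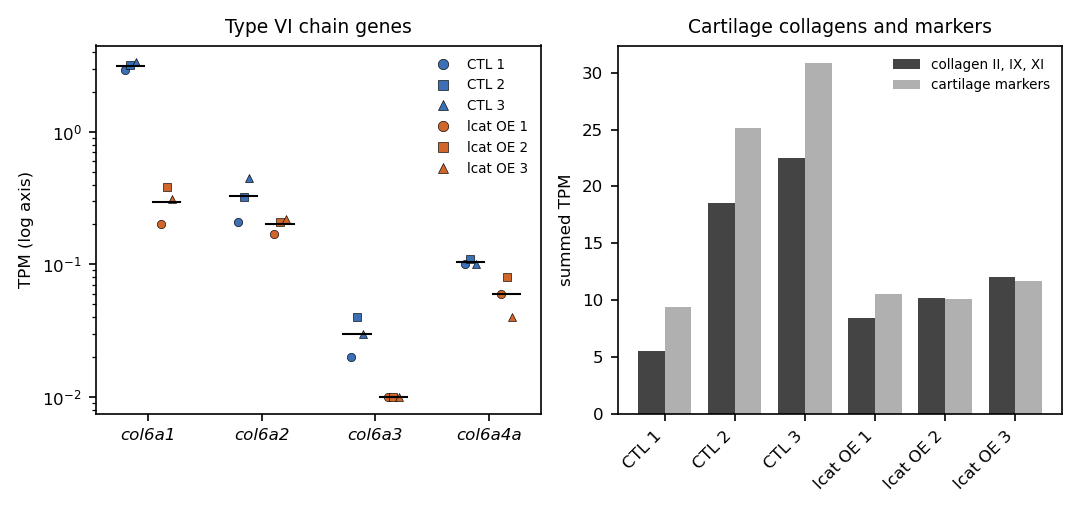
Left, TPM (log axis) of the 4 type VI chain genes with 1 point per library and a bar at each group mean. Right, summed TPM per library of the 9 genes of types II, IX and XI beside 12 cartilage markers that are not collagens. In the left panel col6a1 stands near 3 TPM in CTL and well above its partners, and in the right panel CTL 2 and CTL 3 are the highest libraries in both sets.

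Type VI collagen forms beaded microfilaments around cells from an alpha 1, an alpha 2 and a further chain that can be alpha 3 or one of its relatives. The alpha 1 gene, col6a1, gave the clearest change of the family. It had 2.92, 3.20 and 3.35 TPM in CTL and 0.20, 0.38 and 0.31 TPM in lcat OE. The CTL libraries lay close together, and the lowest of them was over every lcat OE library. The means were 3.16 ± 0.218 TPM and 0.297 ± 0.0907 TPM (SD, n = 3 each), from 1399.42 and 146.03 counts. The log2 fold change was -3.21 (SE 0.21, adjusted p = 4.75e-06 by edgeR). It lay between -3.38 and -2.95 under 14 alternatives and at -1.68 on log2(TPM + 1), where the pseudocount is large beside the lcat OE level; the highest adjusted p over the 15 was 5.81e-05.

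The other type VI chain genes did not share this level or this size of change. The alpha 2 gene, col6a2, which lies next to col6a1 in the RefSeq gene order, had 0.21, 0.32 and 0.45 TPM in CTL and 0.17, 0.21 and 0.22 TPM in lcat OE. The groups overlapped (log2 fold change -0.54, SE 0.35, adjusted p = 0.270 by edgeR). The ratio of col6a1 to col6a2 in TPM was 13.9, 10 and 7.44 in CTL and 1.18, 1.81 and 1.41 in lcat OE. The groups of ratios did not overlap, and an exact two-sided permutation test gave p = 0.1, the smallest that 3 against 3 libraries allow (0.35 adjusted over 7 chain ratios, a comparison chosen after the values were seen). The alpha 3 gene, col6a3, fell too, from counts of 20, 34 and 31 in CTL to 6, 13 and 10 in lcat OE (-1.49, SE 0.42, adjusted p = 0.0200 by edgeR). Its deposited TPM was 0.01 to 0.04 in all libraries, at the limit of the 2 decimals given, and on log2(TPM + 1) the change was -0.03 with an adjusted p of 0.536, the highest of 14 alternatives, of which it passed 9 (lowest 0.0172). Leaving out CTL 2, CTL 3 or lcat OE 1 gave adjusted p-values of 0.0726, 0.0652 and 0.0682. The related chain gene col6a4a had 0.10, 0.11 and 0.10 TPM in CTL and 0.06, 0.08 and 0.04 TPM in lcat OE, without overlap (-0.55, SE 0.34, adjusted p = 0.249 by edgeR).

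Fibroblasts are a known source of type VI collagen, and the stellate cell and fibroblast markers summed to 44.2, 47.8 and 54.2 TPM in CTL and to 26, 35.5 and 27.05 TPM in lcat OE. In this list cxcl12a, wt1b, cygb1 and pdgfra fell, 4 of 16 tested genes, beside 16.3% of all genes. Of these, pdgfra passed the filter on low counts only through CTL, so it was tested because it was high there. The chemokine gene cxcl12a had 7.08, 6.01 and 7.88 TPM in CTL and 1.86, 1.70 and 0.92 TPM in lcat OE. The most abundant members of the list, steap4 and lratb, were not called (adjusted p 0.238 and 0.409 by edgeR). Their means were 13.7 and 10.1 TPM in CTL and 10.1 and 9.59 TPM in lcat OE. The defining receptor genes were near 0 in both groups, with pdgfra at 0.11 to 0.20 TPM in CTL and 0.02 to 0.05 TPM in lcat OE, and pdgfrb at 0.11 to 0.19 and 0 to 0.05 TPM. The part of these cells in the col6a1 result was not tested. The neighbours of col6a1 other than col6a2 were phka2, which fell (-0.95, adjusted p = 0.00442 by edgeR), and tdo2b and atp13a3, which did not pass (-0.40 and -0.30).

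Type IV collagen is the sheet-forming collagen of basement membranes, and its genes stand in pairs, with col4a1 beside col4a2 and col4a3 beside col4a4 in the RefSeq gene order. The gene col4a2 fell, from 0.18, 0.37 and 0.26 TPM in CTL to 0.12 TPM in each lcat OE library, on counts of 31, 65 and 46 against 21, 23 and 23. The groups did not overlap (log2 fold change -1.03, SE 0.33, adjusted p = 0.0345 by edgeR). This call passed under 7 of 15 alternatives (0.0181 to 0.150) and was lost without each library but CTL 1, at 0.150 without CTL 2, 0.0746 without CTL 3, and 0.0904, 0.0932 and 0.0541 without lcat OE 1, 2 and 3. Its partner col4a1 had 0.23, 0.32 and 0.36 TPM in CTL and 0.18, 0.09 and 0.14 TPM in lcat OE, also without overlap, and narrowly missed the threshold (-0.96, SE 0.34, adjusted p = 0.0550; under the threshold in 4 of 15 alternatives, from 0.0427 to 0.177). The 2 genes stood at similar levels in each library, with col4a1 at 0.86 to 1.38 of col4a2 in CTL and 0.75 to 1.5 in lcat OE (TPM ratios). The genes on either side of the pair fell as well: irs2b by 1.82 and rab20 by 0.74 on the log2 scale. In the same libraries 4 of 9 tested endothelial markers fell and 1, sox7, rose, beside 16.3% of all genes in each direction. The full endothelial sums overlapped (3.54 to 7.05 TPM in CTL, 3.45 to 9.26 TPM in lcat OE). Without sox7, a choice made after its values were seen, the sum was lower in every lcat OE library. The markers that fell, cdh5, cldn5b, sox18 and egfl7, passed the filter on low counts only through CTL. The part of endothelial cells in the col4a1 and col4a2 levels was not tested. The pair col4a5 and col4a6, at 0.06 to 0.24 TPM, overlapped between the groups (-0.41 and -0.09, adjusted p 0.427 and 0.882 by edgeR).

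The gene col4a4 showed the opposite pattern at a much lower level. No col4a4 count was found in any CTL library, and 12, 8 and 5 counts were found in lcat OE 1 to 3. It was thus at least 2.82-fold higher in lcat OE against a floor of 3 counts per library, a bound that covers counting error only. The gene did not reach the filter on low counts; with no filter its adjusted p was 0.00252 by edgeR, and it was 0.00331 by DESeq2. Its neighbour col4a3 had 1 count in each group. A count of 0 to 12 per library is close to the limit of detection at this depth.

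The multiplexins, basement membrane collagens that release endostatin-type fragments, overlapped between the groups. The gene col18a1a had 0.57, 0.84 and 0.59 TPM in CTL and 0.77, 0.52 and 0.41 TPM in lcat OE (-0.03, SE 0.24, adjusted p = 0.940 by edgeR). For col15a1b the values were 0.18 to 0.26 TPM in CTL and 0.18 to 0.25 TPM in lcat OE (0.06, SE 0.31, adjusted p = 0.900). Of the anchoring fibril genes, col7a1 and col7a1l, neither had enough counts to be tested (3 and 51 counts in CTL, 8 and 19 in lcat OE).

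Network collagens of types VIII and X gave the widest spread. The gene col10a1a, known from hypertrophic cartilage and from bone-forming cells in fish, had 2.54, 1.01 and 11.98 TPM in CTL and 0.17, 0.76 and 1.31 TPM in lcat OE. CTL 3 was far above the others, CTL 2 lay below lcat OE 3, and the groups overlapped. The log2 fold change was -2.55 with an SE of 1.29 (adjusted p = 0.213 by edgeR; 0.116 to 0.482 over 15 alternatives). Of the 7 bone markers, 4 were highest in CTL 3, among them spp1 (0.23, 0.18 and 3.82 TPM in CTL) and phex (0.30, 0.26 and 1.07 TPM). The most abundant members were not: enpp1 had 6.91, 6.34 and 6.52 TPM in CTL and bglap 4.41, 6.34 and 5.98 TPM. The sum of skeletal muscle markers was also highest in CTL 3, at 301 TPM beside 47.9 and 55.4. Their part in the col10a1a level was not tested. The type VIII gene col8a1a, of vessel wall and cornea, was not tested, with counts of 13, 24 and 9 in CTL and 3, 6 and 3 in lcat OE; with no filter its adjusted p was 0.0405 by edgeR, and it was 0.0704 by DESeq2. Its partner col8a2 had 13, 14 and 13 counts in CTL and 13, 22 and 14 in lcat OE (0.33, SE 0.40, adjusted p = 0.570).

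Of the fibre-associated collagens outside cartilage and the membrane-spanning collagens, 1 gene fell. The transmembrane collagen gene col13a1, whose product sits at cell adhesion sites and the neuromuscular junction, had 0.24, 0.45 and 0.26 TPM in CTL and 0.04, 0.15 and 0.09 TPM in lcat OE, from 80 and 27 counts. The groups did not overlap (log2 fold change -1.51, SE 0.49, adjusted p = 0.0362 by edgeR), and the call passed under 8 of 14 alternatives (0.0213 to 0.151), with 0.151 without CTL 2, 0.0544 without CTL 3, 0.108 without lcat OE 1 and 0.0695 without lcat OE 3. The fibre-associated genes col12a1b (0.14 to 0.17 TPM in CTL, 0.06 to 0.08 in lcat OE) and col16a1 (0.11 to 0.13 and 0.05 to 0.06 TPM) did not overlap between the groups and did not pass (-0.79, SE 0.30, and -1.04, SE 0.38; adjusted p 0.0687 and 0.0587 by edgeR). The hemidesmosome collagen gene col17a1a, known from basal epidermal cells, had 0.15, 0.25 and 0.12 TPM in CTL and 0.24, 0.13 and 0.16 TPM in lcat OE (0.22, SE 0.37, adjusted p = 0.697). It overlaps herc56.2 in the RefSeq gene table, so its reads may be shared. In the same libraries the epidermal markers summed to at most 461 TPM in CTL and at least 5160 TPM in lcat OE, with 16 of 20 called higher and 1 lower, beside 16.3% of all genes in each direction. Not all moved with the sum: tp63 had 0.50, 0.74 and 0.61 TPM in CTL and 0.43, 0.34 and 0.09 TPM in lcat OE (adjusted p = 0.0947 by edgeR). The type VII genes, also of the skin basement membrane, had 0 to 0.18 TPM in CTL and 0 to 0.04 TPM in lcat OE.

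The remaining collagen genes were close to the limit of detection. The 23 genes that were not tested held 2 to 70 counts over all 6 libraries together. Among them the type XXVIII gene col28a1a had 0, 0 and 6 counts in CTL and 22, 12 and 3 in lcat OE, with overlap, and was called higher only in the fit without CTL 3 (adjusted p 0.0241 to 0.223 over 7 alternatives). It overlaps c1galt1a in the RefSeq gene table, and with no strand-specific step named in the labels its reads may belong to either gene. Likewise col7a1 overlaps pfkfb4b, col8a2 overlaps LOC101883771 and col10a1b overlaps nt5dc1 there. With no filter, 54 collagen genes could be fitted; 1, col4a4, was called higher and 6 lower, with a median log2 fold change of -0.43, beside 10.5% of all genes higher and 10.6% lower in that fit. Of the ceramide transfer protein genes, col4a3bpa had 0.87, 1.01 and 0.94 TPM in CTL and 0.74, 0.65 and 0.55 TPM in lcat OE (-0.37, SE 0.20, adjusted p = 0.180), and col4a3bpb had 3.10 to 4.48 TPM in CTL and 3.20 to 4.01 TPM in lcat OE (0.02, SE 0.15, adjusted p = 0.939), both by edgeR.

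By class, the summed TPM of the type VI genes was 6.38-fold higher in CTL by the group means (5.74 to 7.09 when 1 library was left out): 3.25, 3.67 and 3.93 TPM in CTL and 0.44, 0.68 and 0.58 TPM in lcat OE. Of the CTL mean of 3.62 TPM, col6a1 alone held 3.16 TPM, so this sum mostly repeats the col6a1 result. The type VI genes col6a2 and col6a4a were not called. Without col6a1 the sum of all other collagen genes was 18.2, 35.5 and 49.4 TPM in CTL and 17.6, 21.4 and 21.9 TPM in lcat OE, with overlap through CTL 1. Fibrillar genes summed to 9.56, 21.3 and 24.4 TPM in CTL and 10.7, 12.9 and 12.3 TPM in lcat OE, and fibre-associated (FACIT) genes to 3.07, 8.70 and 9.70 TPM and 4.02, 5.26 and 6.30 TPM. Both classes overlapped, with CTL 1 below every lcat OE library. The sums of type IV (0.73 to 1.02 TPM in CTL, 0.44 to 0.61 in lcat OE), of the types VIII and X network (1.73 to 12.4 and 0.39 to 1.57) and of transmembrane collagens (0.42 to 0.72 and 0.31 to 0.34) did not overlap. In summed CPM type VI and type IV again did not overlap, whereas the types VIII and X network (4.36 in CTL 2, 5.51 in lcat OE 3) and the transmembrane class (1.77 in CTL 3, 2.01 in lcat OE 3) did. The types VIII and X network was 5.53-fold higher in CTL by TPM, and 2.34-fold without CTL 3. Sums over chosen genes were given no test.

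**Figure D4:**
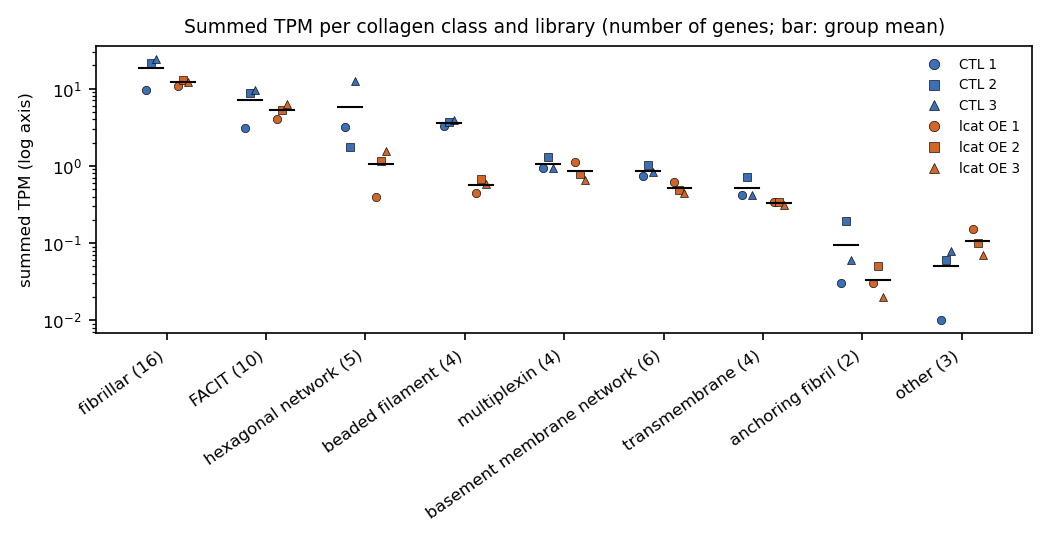
Summed TPM (log axis) of each collagen class, with the number of genes in brackets, 1 point per library and a bar at each group mean. The beaded filament class, type VI, is separated between the groups, at 3.25 TPM or more in CTL and 0.68 TPM or less in lcat OE. Most of its CTL level is col6a1 (mean 3.16 of 3.62 TPM). The fibrillar and FACIT classes overlap because CTL 1 lies low.

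Of 20 tested genes that fold and secrete collagen, 5 rose and 1 fell, beside 16.3% of all genes in each direction. The median log2 fold change of the list was 0.15, beside -0.02 over all genes. The largest rise was in creb3l1, a transcription factor gene: it had 0.05, 0.16 and 0.05 TPM in CTL and 4.66, 3.61 and 1.4 TPM in lcat OE (4.95, SE 0.42, adjusted p = 4.74e-05 by edgeR). The ER foldase gene ppib rose from 176 ± 18.6 to 272 ± 55.5 TPM (0.79, SE 0.14; SD, n = 3 each), and the lysyl hydroxylase gene plod1a from 1.58 to 2.52 TPM (0.85, SE 0.17). The coat gene sec24d, needed for collagen export in zebrafish cartilage, fell from 7.39 to 4.37 TPM (-0.56, SE 0.12). The collagen-specific chaperone gene serpinh1b, chosen after its values were seen, had 4.88 and 6.52 TPM and did not pass (adjusted p = 0.167). With a pseudocount of 1 on TPM the median of the list turned to -0.04 with 2 rises, and with 0.1 to -0.06 with 3 rises. Without CTL 1, 3 genes of the list fell. Neither ppib nor sec24d acts on collagen alone. The gene creb3l1 passed the filter on low counts only through lcat OE, so it was tested because it was high there.

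The calls in the lists of genes that process, bind and surround collagen stand beside 16.3% of all genes in each direction. Among 13 tested genes of procollagen processing and crosslinking 1 rose and 4 fell (median -0.59): the procollagen proteinase enhancer gene pcolcea had 1, 2.83 and 3.14 TPM in CTL and 0.37, 0.31 and 0.45 TPM in lcat OE (-2.42, SE 0.42, adjusted p = 0.00246), the transglutaminase gene tgm2b changed by -3.32 and the lysyl oxidase gene loxl2b by -1.51, while the N-proteinase gene adamts2 rose (1.74, SE 0.24). The loxl2b call was lost without CTL 3 (adjusted p = 0.0522 by edgeR), where 2 genes of the list fell. The adamts2 levels were 0.14 to 0.18 TPM in CTL and 0.29 to 0.43 TPM in lcat OE. Among 10 tested collagen receptor genes 1 rose and 4 fell (median -0.49). The beta 1 integrin gene itgb1b.1 fell from 6.08 ± 0.254 to 2.40 ± 0.123 TPM (-1.12, SE 0.13; SD, n = 3 each) and itgb1b.2 from 70.2 to 40.3 TPM (-0.61, SE 0.13). The collagen-binding integrin gene itga1 changed by -3.66 (SE 0.73) and the discoidin receptor gene ddr2a by -2.14 (SE 0.45), both from under 1 TPM. The receptor gene that rose, itga11a, passed under 6 of 15 alternatives and was lost without CTL 1, without CTL 2 and without each lcat OE library. Of the genes named here, tgm2b, itga1 and ddr2a passed the filter on low counts only through CTL, and itga11a only through lcat OE. Their calls thus concern genes that were tested because they were high in that group.

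In the other matrix lists, 0 of 15 tested basement membrane genes rose and 4 fell (median -0.39), and 0 of 29 interstitial matrix genes rose and 5 fell (median -0.36). The nidogen gene nid1a, whose product links laminin to type IV collagen, fell from 118 ± 1.12 to 81.4 ± 2.34 TPM (SD, n = 3 each; -0.43, SE 0.11, adjusted p = 0.0134; 0.0593 without CTL 1 and 0.0559 without lcat OE 1, the highest of 15 alternatives being the former). The laminin genes lama4 (-1.75, SE 0.29) and lamb1a (-1.14, SE 0.35) and the agrin gene agrn (-0.61, SE 0.17) fell as well. The lamb1a call was lost without CTL 2, CTL 3 or lcat OE 2 (adjusted p 0.0988, 0.0539 and 0.0807), and the agrn call without CTL 1 or lcat OE 3 (0.0654 and 0.0581). Without CTL 1, 2 genes of this list fell. Of the interstitial genes, ecm1b fell from 4.23 to 1.78 TPM (-1.16, SE 0.22), the biglycan gene bgnb by 3.18, the thrombospondin gene thbs1a by 1.95 and the elastin-interface gene emilin2a by 1.71 on the log2 scale. The thbs1a call was lost without CTL 2 (adjusted p = 0.0533), and the emilin2a call without CTL 2, CTL 3 or lcat OE 1 (0.0516, 0.0506 and 0.0533). The genes bgnb, thbs1a and emilin2a passed the filter on low counts only through CTL, so they were tested because they were high there. The 5 interstitial genes that fell became 11 without CTL 1, 2 without CTL 2 and 3 without CTL 3, and 1 rose without lcat OE 1. Of 12 tested genes of collagen breakdown 1 rose and 1 fell (median 0.01): the bone-resorbing protease gene ctsk rose from 0.42 to 0.993 TPM (1.46, SE 0.47, adjusted p = 0.0343; up to 0.28 over 14 alternatives, and 0.0968, 0.109 and 0.147 on leaving out CTL 1, CTL 3 or lcat OE 3), and the membrane metalloproteinase gene mmp16a fell (-0.89, SE 0.17). A count of 2 falls was found without CTL 1, CTL 3, lcat OE 2 or lcat OE 3. Over the 6 lists, 8 of 99 tested genes rose (8.08%) and 19 fell (19.2%), with a median of -0.32; the share that fell is near that of all genes, 16.3%.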

How the data were processed

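The authors deposited 1 table of 23745 genes. Its read count columns are expected counts (10.8% to 11.8% of genes per library not whole, tolerance 0), and its TPM and FPKM columns, deposited by the authors, are scaled by transcript length and depth. A further deposited signal, counts divided by 1 factor per library, and the group averages were not used. Per the submitters' processing notes, which give no roles, the tools were RSEM 1.3.1, HISAT, Bowtie2 2.3.4.3 and DESeq2 1.4.5, and the build was GRCz11.

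Expected counts were rounded. The test was edgeR's quasi-likelihood F test (version 4.0.16, R 4.3.3), with robust fitting, TMM scaling, the filterByExpr filter and no term but group. It was two-sided, with Benjamini-Hochberg adjustment over 14096 genes and a threshold of 0.05. Standard errors are the absolute log2 fold change over the square root of F. Levels are TPM. Replicates in a group were not 1 library deposited again (chi-square over its degrees of freedom 10.5 to 33.2). The fits were tested on simulated data, whose spread was set beforehand and not taken from these libraries. There edgeR recovered 8% of 1.5-fold, 60% of 2-fold and 98% of 4-fold changes, with 1 false call among 131. A change that did not pass is thus not shown to be absent, whether below or above 2-fold. In these libraries col10a1a did not pass at 5.85-fold.

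Members and lists were chosen with earlier results of these data known. Of 366 list names, 337 matched by symbol and 15 by a RefSeq symbol (assembly GRCz12tu, used for names and gene order). Named members are those called or at a mean of 1 TPM or more in either group, and from each partner list up to 4 called genes with the smallest p. Other genes named were chosen after their values were seen. Alternatives were RLE factors, library totals, other filters, DESeq2 1.42.0, limma 3.58.1 on log2(TPM + 1) and log2(TPM + 0.1), a replicate block, leaving out each library and, chosen after seeing the data, 2 against 2 libraries without CTL 1 and lcat OE 3.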

Additional observations from a re-analysis of the deposited data

How the results depend on the processing

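Of the collagen genes, col6a1 kept its direction and its call under all 15 alternatives. The count of collagen genes called lower, 5 with all libraries, was 2 by DESeq2, 3 on log2(TPM + 1), 11 with 2 against 2 libraries, and 1 to 11 when 1 library was left out; the cause was not tested. When 1 library was left out, these were 2.86% to 32.4% of tested collagen genes, beside 11.9% to 15.2% of all genes. The count called higher, 0 with all libraries, was 1 (col4a4) with no filter and by DESeq2, and 0 to 1 when 1 library was left out. Over all genes, 1344 were called higher on log2(TPM + 1) and 1367 on log2(TPM + 0.1), beside 2293; 30.8% of calls on either scale were higher, beside 49.9% with TMM and 38.8% with library totals, and the median of all genes moved from -0.02 to -0.09 and -0.18. On the same 2 scales 3 and 4 partner genes were called higher, beside 8. When 1 library was left out, the sign turned for 6 of 31 tested collagen genes: col4a6 (-0.28 to 0.15), col15a1b (-0.06 to 0.22), col18a1a (-0.24 to 0.15), col1a1a (-0.35 to 0.069 over the 6 libraries), col9a1a (-0.50 to 0.29) and col9a3 (-0.67 to 0.10); of these fits, col9a3 passed without CTL 1. The log2 ratio of summed levels moved, with CPM in place of TPM, from -2.67 to -2.42 for type VI and from -0.66 to -0.29 for transmembrane collagens, and that of anchoring fibril genes, -1.49, was -1.91 to -0.43 when 1 library was left out. Libraries with the same replicate number did not deviate together (correlations of deviations of -0.05, -0.03 and 0.02). This cannot show whether they shared a clutch or a sort. With the replicate block, 0 collagen genes were called higher and 5 lower. At this depth 54 genes shared 2496 to 6194 counts per library, so most members rest on few counts.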
